A study of Mus musculus with 6 samples.

Results

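The complement genes described here are 8 in number, chosen by name: the C1q chain genes C1qa, C1qb and C1qc, the component and factor genes C3, Cfb and Cfp, and the receptor genes C3ar1 and C5ar1. All 8 were among the 18429 genes counted. They were measured by MARS-seq, a plate-based single-cell RNA-seq method, in mouse bone marrow-derived macrophages grown in L929-conditioned medium. Cells were wild-type or Rad21-/-, that is, without the cohesin subunit RAD21. They were left untreated or given lipopolysaccharide (LPS) at 10 ng/ml for 2 h or 8 h. Both genotypes were homozygous for creERT2 at the Rosa26 locus, and the growth protocol with 200 nM 4-hydroxy-tamoxifen from 96 h was given for both, with experiments at day 7. The drug activates Cre in every cell type of the culture, and in cells with floxed Rad21 it deletes the gene in mature macrophages. The mice were of a mixed strain background, of both sexes and aged from 6 weeks to 6 months, and how many animals each sample came from is not given in the sources used here. The study set out to learn whether cohesin loss alters how many macrophages express an inducible gene or how much each cell expresses.

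Each of the 6 conditions was 1 sample. No test between conditions was therefore possible, no p-value is given, and every interval below is a 95% interval for counting error only. Transcripts were counted as unique molecular identifiers (UMIs), so that copies of 1 molecule count as 1. A level is the sum of UMIs of a gene over the cells of a sample, per 1000000 summed UMIs (CPM). A ratio is the log2 ratio of 2 such levels. The ratios within a genotype share their untreated sample, and the ratios between genotypes share samples with them, so they are given side by side and not counted as separate evidence.

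Complement is a cascade of plasma proteins that tags targets for uptake, attracts leukocytes and can lyse membranes. C1q, built from A, B and C chains, starts the classical pathway by binding antibody on a target, and also binds dying cells. C3 is the central component on which all pathways converge. Factor B, from Cfb, supplies the protease of the alternative pathway convertase, and properdin, from Cfp, stabilises that convertase. Cleavage of C3 and C5 releases the anaphylatoxins, which act through the G protein-coupled receptors encoded by C3ar1 and C5ar1. Macrophages are a major source of C1q in many tissues, and they also make C3, factor B and properdin locally.

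In the GRCm38.p6 gene table, C1qb (chr4:136880126-136886200), C1qc (chr4:136889801-136892936) and C1qa (chr4:136895916-136898844) lay side by side within 18719 bases. Cfb (chr17:34856374-34862514) and C3 (chr17:57203967-57228136) lay on chromosome 17, Cfp (chrX:20925454-20931555) on the X chromosome, C3ar1 (chr6:122847140-122856157) on chromosome 6 and C5ar1 (chr7:16246743-16259540) on chromosome 7. In chromosome coordinates, which do not give the order of transcription, C2 began 87 bases beyond the end of Cfb. C2 encodes the protease partner of the classical pathway convertase. An annotated microRNA gene lay inside C3 (Mir6978) and inside Cfb (Mir6972), and whether the counting used strand is not stated. The 250 bases before the start of C3 (chr17:57228137-57228386), Cfp (chrX:20931556-20931805) and C3ar1 (chr6:122856158-122856407) are shown because these genes differed between genotypes in untreated cells in every library pool, as described below. C5ar1 differed in every pool too, but its window and that of C1qc reach into the annotated extent of their genes, so they were searched and are not shown. They are RefSeq sequence of GRCm38.p6, read 5′ to 3′ on the minus strand, and capitals mark matches to the motifs searched.
C3: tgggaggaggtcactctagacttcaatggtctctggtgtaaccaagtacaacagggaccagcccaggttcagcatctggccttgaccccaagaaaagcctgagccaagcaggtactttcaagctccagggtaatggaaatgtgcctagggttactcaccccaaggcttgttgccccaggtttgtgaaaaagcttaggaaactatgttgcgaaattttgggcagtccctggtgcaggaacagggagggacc
Cfp: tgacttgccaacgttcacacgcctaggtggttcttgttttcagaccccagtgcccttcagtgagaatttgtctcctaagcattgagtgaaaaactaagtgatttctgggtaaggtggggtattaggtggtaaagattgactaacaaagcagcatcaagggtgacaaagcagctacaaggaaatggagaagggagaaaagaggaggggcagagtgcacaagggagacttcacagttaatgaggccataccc
C3ar1: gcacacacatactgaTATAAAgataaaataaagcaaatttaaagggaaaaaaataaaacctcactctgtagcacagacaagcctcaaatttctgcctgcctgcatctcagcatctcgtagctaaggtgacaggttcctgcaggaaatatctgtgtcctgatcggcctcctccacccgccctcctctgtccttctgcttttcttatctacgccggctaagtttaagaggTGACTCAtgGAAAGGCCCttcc
The motifs, searched on both strands, were NF-kappaB as GGGNNTTTC or GGGNNTTCC, the interferon-stimulated response element (ISRE) as GAAANNGAA, PU.1 as GAGGAAGT or AGAGGAA, AP-1 as TGACTCA and the TATA box as TATAAA. Of the 6 complement genes in the promoter table (C1qb, C1qc, C3, Cfp, C3ar1 and C5ar1), 3 held a match. C3ar1 held an AP-1 match 22 to 16 bases before its start, an NF-kappaB match at 13 to 5 bases and a TATA box match at 235 to 230 bases. These motifs occurred in 4.46%, 8.14% and 12.4% of the 32851 promoter windows of that length. In the windows that reach into their genes, C1qc held a PU.1 match, as did 10.1% of windows, and C5ar1 held an ISRE match, as did 7.13%. No match overlapped another, and these letters did not occur in the windows of C3, Cfp and C1qb.

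The matrix held 1362 cells, of which the 17 wells with more than 25000 UMIs were left out, because they held up to 45.5% of the UMIs of a sample (wild-type, 2 h). The remaining 1345 cells (181 to 267 per sample) had 1197415 to 1734640 UMIs per sample and a median of 5544 to 7043 UMIs per cell. No well was named in more than 1 sample and no 2 cells held identical counts. Rad21 was at 34.1 to 64.3 CPM in the wild-type samples and at 5.46 to 8.01 CPM in the Rad21-/- samples. Tnf, which encodes tumour necrosis factor, was higher at 2 h and at 8 h of LPS than in untreated cells of both genotypes. Nos2, which encodes inducible nitric oxide synthase, was higher at 8 h in both genotypes. Before 8 h it held only 1 to 3 UMIs per sample, so it does not check the 2 h labels. All 10 macrophage markers were detected in every sample, with a summed level of 8563 to 11579 CPM in wild-type and 7781 to 8760 CPM in Rad21-/- cells. The markers of other cells that could be looked up summed to 0 to 13.3 CPM for neutrophils (S100a8 and Camp, 2 of 7 listed), 23.6 to 32.6 CPM for dendritic cells (2 of 5), 4.25 to 13.6 CPM for B cells (1 of 4), 9.19 to 24.9 CPM for mast cells and basophils (1 of 3) and 8.65 to 19.9 CPM for fibroblasts (3 of 4). T and NK cell and erythroid markers were not analysed here. The part of these differences in the results below was not tested.

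Across the 8 genes, LPS went with higher C3 and Cfb in both genotypes, and with lower C1q chain levels by 8 h in both. Without RAD21, untreated cells had lower C3, Cfp, C3ar1 and C5ar1, and after LPS the receptors were higher than in untreated cells of that genotype. Among ratios with at least 50 UMIs, C5ar1 showed the widest gap between genotypes, at 7.06-fold lower in untreated Rad21-/- cells.

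**Figure D1:**
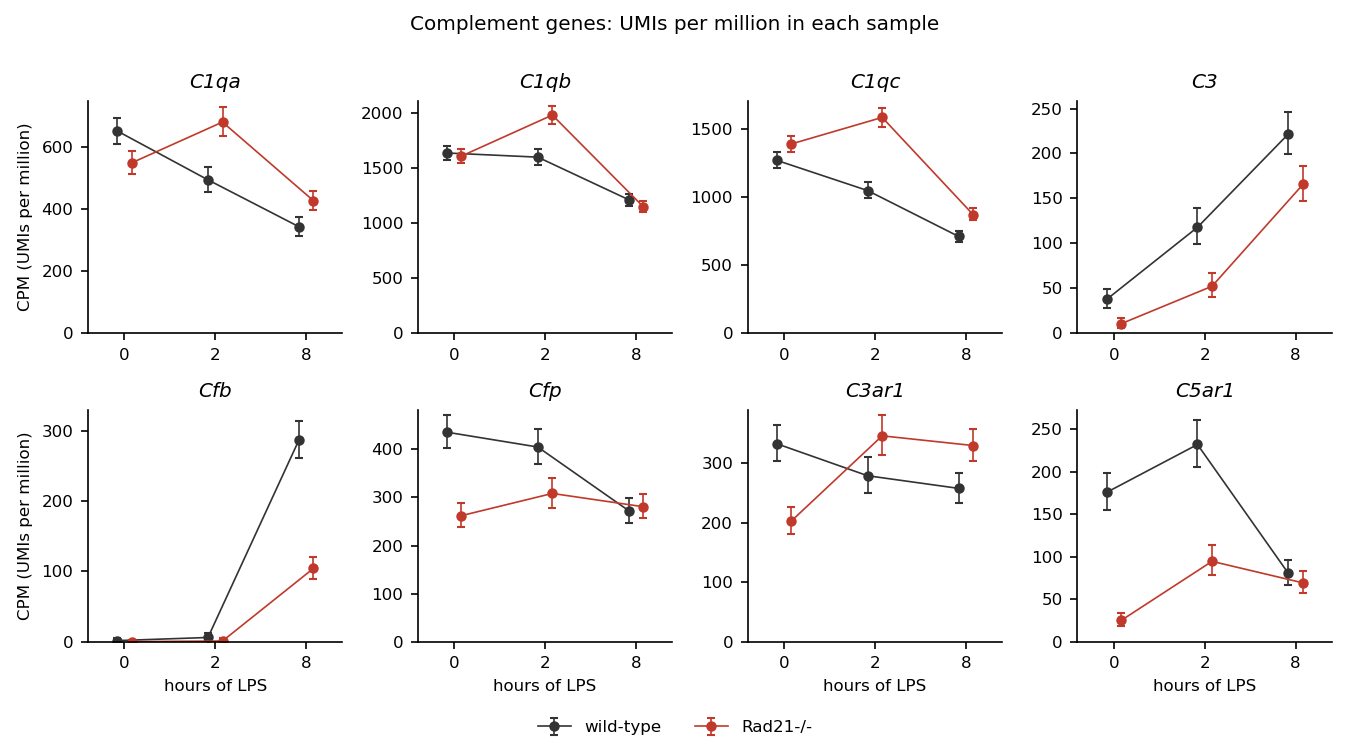
Level of each complement gene (CPM, linear axis from 0) by hours of LPS (evenly spaced), with wild-type in black and Rad21-/- in red. Points are 1 sample each, bars are exact 95% Poisson intervals of the count and lines only join the samples of a genotype. C3 and Cfb are highest at 8 h in both genotypes, and the lines of C1qa, C1qb, C3ar1 and Cfp cross.

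The C1q chain genes were detected in most cells of every sample. C1qa, the A chain, was at 652, 494 and 343 CPM in wild-type cells that were untreated, at 2 h and at 8 h of LPS, and at 549, 681 and 427 CPM in Rad21-/- cells. In wild-type cells the level was lower at each later time, whereas in Rad21-/- cells the 2 h sample was the highest. C1qb, the B chain, was at 1634, 1596 and 1209 CPM in wild-type and at 1606, 1978 and 1146 CPM in Rad21-/- cells. C1qc, the C chain, was at 1272, 1049 and 711 CPM in wild-type and at 1392, 1588 and 872 CPM in Rad21-/- cells. For all 3 chains the highest of the 6 samples was Rad21-/- at 2 h, although for C1qa it did not differ beyond counting error from untreated wild-type.

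At 8 h of LPS the 3 chains were lower than in untreated cells of the same genotype, by less than 2-fold. In wild-type cells the log2 ratios were -0.93 (-1.08 to -0.77) for C1qa, -0.43 (-0.52 to -0.35) for C1qb and -0.84 (-0.95 to -0.73) for C1qc, where the median of all 8528 genes with at least 50 UMIs was -0.24. In Rad21-/- cells they were -0.36 (-0.51 to -0.22), -0.49 (-0.57 to -0.40) and -0.67 (-0.77 to -0.58), and the median of 9259 genes was -0.02. Scaling by the median ratio of genes in place of total UMIs added 0.31 to every wild-type 8 h ratio, which put C1qb at -0.13 and left C1qa at -0.62 and C1qc at -0.53. At 2 h the genotypes differed: the wild-type ratios were -0.40 (-0.55 to -0.25) for C1qa, -0.03 (-0.12 to 0.05) for C1qb and -0.28 (-0.38 to -0.17) for C1qc, and the Rad21-/- ratios were 0.31 (0.17 to 0.45), 0.30 (0.22 to 0.38) and 0.19 (0.10 to 0.28). The same scaling added 0.11 to the wild-type 2 h ratios and put C1qb at 0.07.

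Library pools, each a set of wells processed together, allowed the genotypes to be compared within a pool, since 23 of the 24 pools held both. At 2 h all 3 chains were higher in Rad21-/- than in wild-type cells in 4 of the 4 pools with at least 10 cells of each genotype, as were 16.4% of the 7597 genes compared. C1qc ranged over pools from 1289 to 1849 CPM in Rad21-/- and from 954 to 1151 CPM in wild-type cells, without overlap, as in 5.49% of genes. The pool ranges of C1qa and C1qb overlapped between genotypes. In untreated cells the chains showed no common direction: C1qc was higher in 5 of 8 pools, C1qa lower in 6 and C1qb lower in 7. Every pool held 1 time point, so the effect of LPS and that of the pool cannot be told apart. The ranges of C1qc at 8 h and in untreated cells did not overlap in either genotype, at 494 to 872 against 981 to 1556 CPM in wild-type and at 820 to 926 against 1126 to 1725 CPM in Rad21-/- cells. Among all genes 4.49% and 2.26% were lower without overlap in these comparisons.

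**Figure D2:**
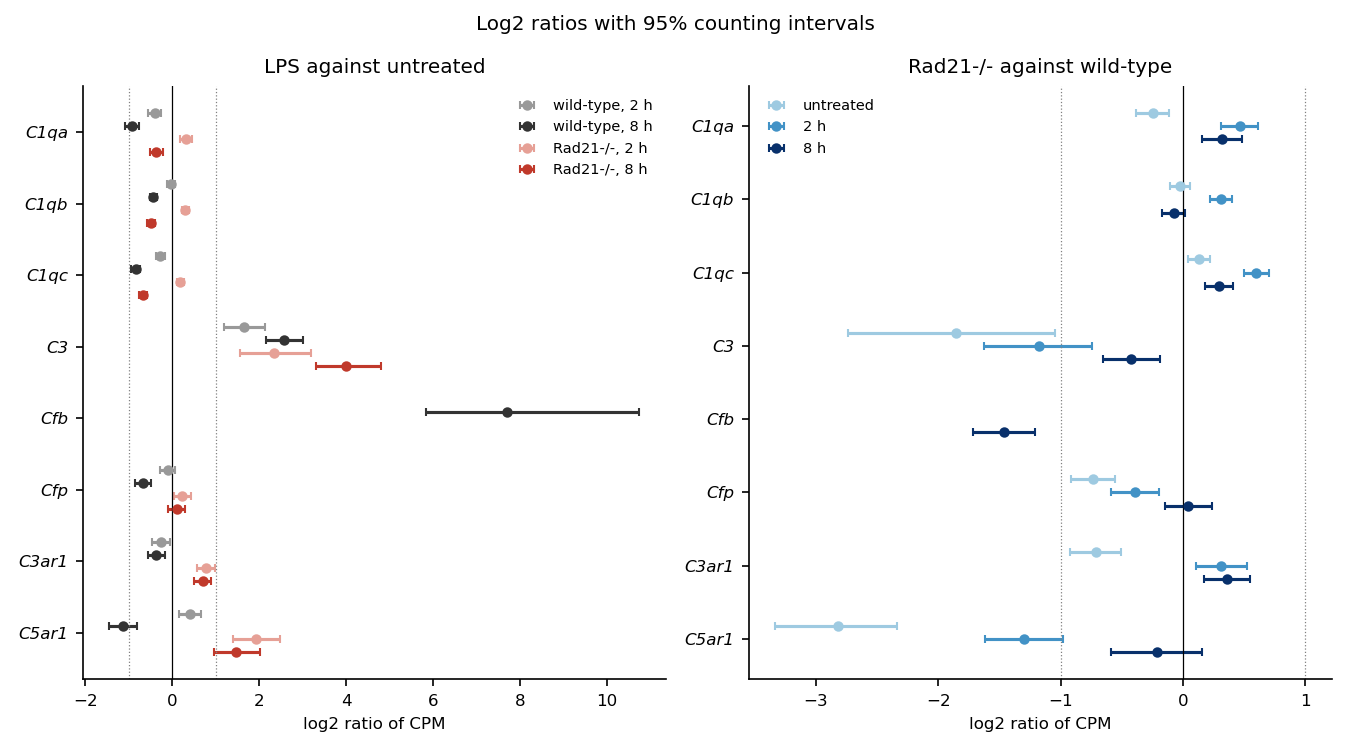
Log2 ratios of CPM with exact 95% counting intervals, LPS against untreated on the left and Rad21-/- against wild-type on the right, for pairs of samples with at least 50 UMIs and a UMI in both. Dotted lines mark a 2-fold difference. C3 and Cfb lie far to the right of 0 after LPS, and untreated C5ar1 and C3 lie farthest to the left between genotypes.

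The C1q chains were often found in the same cells. A UMI of all 3 chains was found in 77.3%, 70.7% and 60.1% of wild-type cells (untreated, 2 h and 8 h) and in 67.8%, 78.3% and 67.6% of Rad21-/- cells. Cells without any C1q UMI made up 0.420% to 2.77% of a sample. C1qb alone was found in 95.1% to 98.3% of cells, so that C1qa, found in 62.8% to 80.98%, mostly set whether a cell had all 3. Across the cells of a sample, Pearson's r of log2(CPM + 1) was 0.41 to 0.64 for C1qb and C1qc, 0.36 to 0.44 for C1qa and C1qc and 0.26 to 0.48 for C1qa and C1qb. Depth is shared by the genes of a cell, and with every cell thinned to 3800 UMIs the ranges were 0.36 to 0.49, 0.23 to 0.41 and 0.21 to 0.38. All other pairs of the 8 genes had r between -0.28 and 0.38. The highest was that of C1qc and Cfp in untreated wild-type cells, where C1qa and C1qb had 0.26, and thinned values there were 0.27 and 0.21. At these counts such values are weak. The 10% of cells richest in C1qa held 33.8% to 38.5% of its UMIs, against 16.3% to 27.5% for C1qb and 19.3% to 25.4% for C1qc.

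**Figure D3:**
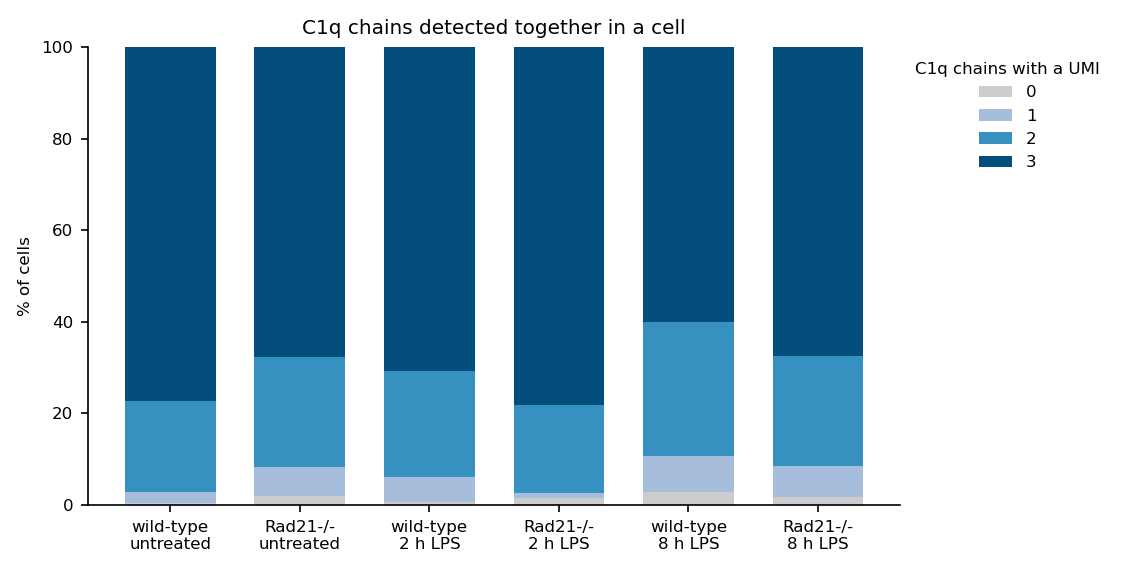
Share of cells of each sample (percent, bars to 100%) with a UMI of 0, 1, 2 or 3 of the C1q chain genes, without thinning. Cells with all 3 chains make up 60.1% of wild-type cells at 8 h and 78.3% of Rad21-/- cells at 2 h, the lowest and the highest of the 6 samples.

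In the summed UMIs the mix of chains differed with LPS and between genotypes. It also varied between library pools of the same sample. In untreated wild-type cells C1qb and C1qc had 419 and 439 UMIs in 1 pool, and 495 and 304 UMIs in another. The intervals below leave out this spread, and LPS and pool cannot be told apart. C1qb made up 45.9% (44.5% to 47.3%) of C1q UMIs in untreated wild-type cells, 50.8% (49.2% to 52.4%) at 2 h and 53.4% (51.8% to 55.1%) at 8 h. In Rad21-/- cells C1qb made up 45.3% (44.0% to 46.6%), 46.6% (45.2% to 47.9%) and 46.9% (45.4% to 48.4%). For C1qb the gap between genotypes thus lay after LPS. C1qc made up 35.7%, 33.4% and 31.4% of the wild-type C1q UMIs, as against 39.2%, 37.4% and 35.7% without RAD21. Shares are of UMIs, and genes may be captured with unequal efficiency, so they are read between samples and not as chain ratios.

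C3, the central component, was scarce in untreated cells and higher at each later time in both genotypes. It was at 37.4, 118 and 222 CPM (54, 141 and 345 UMIs) in wild-type and at 10.3, 52.1 and 165 CPM (17, 65 and 287 UMIs) in Rad21-/- cells. The Rad21-/- sample was the lower at each time, and neighbouring levels in the order of samples differed beyond counting error except for Rad21-/- at 2 h and untreated wild-type. The wild-type log2 ratios to untreated were 1.66 (1.19 to 2.14) at 2 h and 2.57 (2.15 to 3.01) at 8 h. The Rad21-/- ratios were 2.34 (1.55 to 3.20) and 4.00 (3.30 to 4.80), from a lower untreated level. The pool ranges at 2 h and at 8 h lay above those of untreated cells in each genotype without overlap, which among all genes was seen in 2.46% and 4.80% for wild-type and in 2.34% and 3.90% for Rad21-/- cells.

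Between genotypes C3 was 3.62-fold lower in untreated Rad21-/- cells (log2 ratio -1.86, -2.74 to -1.05), 2.26-fold lower at 2 h (-1.18, -1.62 to -0.74) and 1.34-fold lower at 8 h (-0.42, -0.65 to -0.19). It was lower in Rad21-/- cells in 8 of 8 untreated pools, in 4 of 4 pools at 2 h and in 5 of 6 at 8 h. Of all genes, 4.39% were lower in all 8 untreated pools and 13.6% in all 4 pools at 2 h. At 2 h the pools ranged from 31.5 to 65.2 CPM in Rad21-/- and from 99.0 to 134 CPM in wild-type cells, without overlap, as in 5.86% of genes. The median-ratio scaling moved the 8 h ratios between genotypes by -0.22, away from 0 for C3.

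The share of cells with a UMI of C3 followed the level. A UMI was found in 16.8%, 44.8% and 61.7% of wild-type cells, as against 6.37%, 21.2% and 55.0% of Rad21-/- cells. After thinning to 3800 UMIs these shares were 12.6%, 32.5% and 48.7% for wild-type, and for Rad21-/- cells they were 2.27%, 14.5% and 37.8%. The genotypes thus kept their order at each time. Positive cells held 1.35, 1.74 and 2.21 UMIs on average in wild-type and 1, 1.67 and 2.35 UMIs in Rad21-/- cells. The mean CPM over cells is the share of positive cells times the mean CPM of a positive cell, so its log2 ratio splits into a share part and a level part. Of the 7 ratios of C3 that were clear of 0, 6 had a larger share part than level part, for example 1.88 against 0.67 in wild-type at 8 h. The exception was the genotype ratio at 8 h (-0.17 against -0.35). With so few UMIs per positive cell, a like difference in every cell would also appear mostly as a difference of share, so the split does not tell the alternatives apart for C3. Share did not outweigh level for every member. It did so in 3 of 7 ratios clear of 0 for C1qa, 0 of 4 for C1qb and 0 of 7 for C1qc. The C1q chains were in most cells of every sample, which leaves their share little room to differ. For Cfp, Cfb and C3ar1 the counts were 1 of 4, 1 of 2 and 4 of 7.

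Cfb, which encodes factor B, was nearly absent before 8 h of LPS. Wild-type cells held 2, 7 and 447 UMIs (1.38, 5.85 and 287 CPM) and Rad21-/- cells held 0, 1 and 181 UMIs (0, 0.801 and 104.3 CPM). The 0 in untreated Rad21-/- cells allows, by a floor of 3 UMIs, a level of up to 1.82 CPM and UMIs in up to 1.12% of the 267 cells. Both 8 h samples stood apart from the other 4, which did not differ from their neighbours in the order of levels beyond counting error. The wild-type log2 ratio at 8 h was 7.70 (5.84 to 10.75), and in Rad21-/- cells Cfb was at least 57.3-fold higher at 8 h against that floor, where the exact interval of the ratio began at 46.1-fold. The neighbouring gene C2 was at 28.4, 21.7 and 22.5 CPM in wild-type and at 43.1, 32.0 and 41.5 CPM in Rad21-/- cells, so it did not share the pattern of Cfb.

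At 8 h Cfb was 2.75-fold lower in Rad21-/- than in wild-type cells (log2 ratio -1.46, -1.72 to -1.21). It was lower in 6 of 6 pools, as were 7.46% of genes, and ranged from 49.3 to 158 CPM in Rad21-/- and from 229 to 460 CPM in wild-type pools without overlap, as in 2.83% of genes. A UMI was found in 67.2% (61.0% to 72.9%) of wild-type and 45.0% (38.4% to 51.8%) of Rad21-/- cells, and in 57.1% and 28.9% after thinning. Positive cells held 2.63 and 1.81 UMIs, and the share part (-0.58) and level part (-0.68) of the difference were of like size. C3 and Cfb were each in many cells at 8 h without going together. Both were found in 41.1% of wild-type and 24.3% of Rad21-/- cells, where the product of their shares was 41.4% and 24.8%.

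Cfp, which encodes properdin, was at 436, 405 and 272 CPM in wild-type and at 262, 308 and 281 CPM in Rad21-/- cells. Wild-type cells before 8 h had the highest levels, and the 4 other samples followed without a neighbouring pair that differed beyond counting error. The wild-type log2 ratio at 8 h was -0.68 (-0.86 to -0.50), or -0.37 under median-ratio scaling. The wild-type pools at 8 h (180 to 328 CPM) lay below the untreated ones (355 to 628 CPM), as in 4.49% of genes. In Rad21-/- cells the ratios were 0.23 (0.03 to 0.44) at 2 h and 0.10 (-0.09 to 0.29) at 8 h, the latter turning to -0.06 with every pool given equal weight. Untreated Rad21-/- cells had 1.66-fold less Cfp than wild-type cells (log2 ratio -0.73, -0.91 to -0.55). Cfp was lower in 8 of 8 untreated pools, as were 4.39% of genes. The pool ranges (206 to 340 and 355 to 628 CPM) did not overlap, as in 1.25% of genes. At 2 h Cfp was lower in 4 of 4 pools, as were 13.6% of genes, at -0.39 (-0.59 to -0.20). At 8 h the ratio of 0.04 (-0.15 to 0.23) had no stable sign and was -0.17 under median-ratio scaling.

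**Figure D4:**
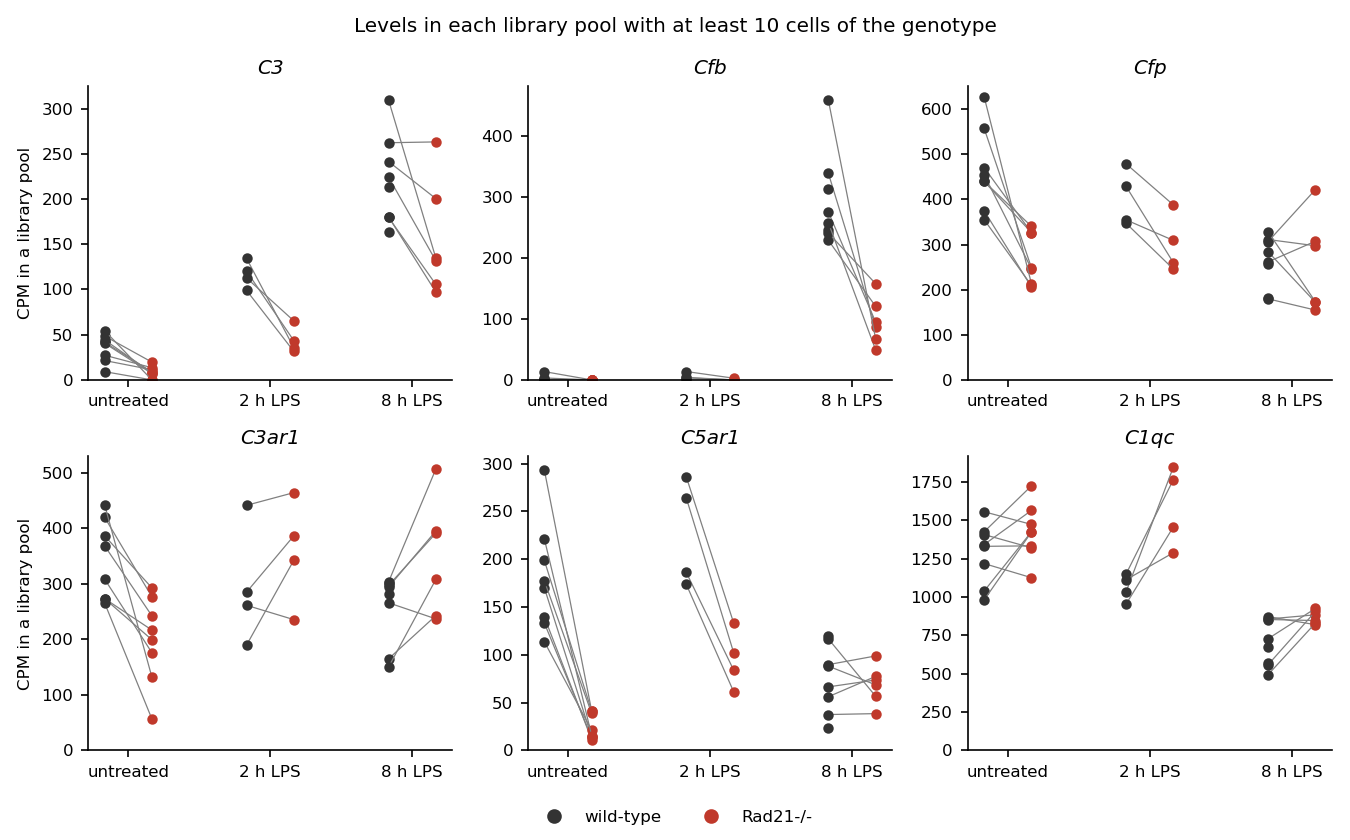
Level (CPM, linear axis from 0) of 6 complement genes in each library pool with at least 10 cells of the genotype, wild-type in black and Rad21-/- in red, with a line joining the genotypes of a pool. The untreated lines of C3, Cfp, C3ar1 and C5ar1 all slope down towards Rad21-/-, as do those of Cfb at 8 h.

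For both receptor genes the ratios to untreated at 8 h had opposite signs in the genotypes. C5ar1, the receptor of C5a, was at 176, 232 and 80.3 CPM (254, 278 and 125 UMIs) in wild-type and at 24.9, 94.5 and 69.2 CPM (41, 118 and 120 UMIs) in Rad21-/- cells. Untreated Rad21-/- cells were the lowest of the 6 samples, and wild-type cells at 2 h the highest. The wild-type log2 ratios to untreated were 0.40 (0.15 to 0.65) at 2 h and -1.13 (-1.45 to -0.81) at 8 h. The Rad21-/- ratios were 1.93 (1.40 to 2.48) and 1.48 (0.95 to 2.02), so at 8 h the genotypes moved in opposite directions and met near the same level. The 2.19-fold lower wild-type level at 8 h was less than 2-fold under median-ratio scaling, at -0.82.

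Between genotypes C5ar1 was 7.06-fold lower in untreated Rad21-/- cells (log2 ratio -2.82, -3.33 to -2.34) and 2.46-fold lower at 2 h (-1.30, -1.62 to -0.98). At 8 h the ratio was -0.22 (-0.59 to 0.16), not separable from 0 at this depth. Under median-ratio scaling it was -0.43, and shifting the interval by the same amount puts it below 0. With the mean over cells of the CPM of each cell it was 0.003. At 8 h C5ar1 was higher in Rad21-/- cells in 4 of 6 pools. C5ar1 was lower in Rad21-/- cells in 8 of 8 untreated pools, which ranged from 11.3 to 41.3 CPM against 113.7 to 293 CPM in wild-type cells. It was also lower in all pools at 2 h, at 61.4 to 133 against 174 to 286 CPM. Lower in all pools were 4.39% of all genes in untreated cells and 13.6% at 2 h. The ranges did not overlap at either time, as in 1.25% and 5.86% of genes. Neutrophils also carry this receptor. Of 7 listed neutrophil markers only 2, S100a8 and Camp, were in the matrix. They summed to 0 CPM in untreated wild-type and 0.607 CPM in untreated Rad21-/- cells. The part of neutrophils in the C5ar1 difference was not tested.

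The share of cells with a UMI of C5ar1 also followed the level, apart from 8 h. A UMI was found in 55.5%, 70.7% and 31.2% of wild-type cells, as against 12.7%, 40.2% and 37.4% of Rad21-/- cells. Thinning to equal depth gave 46.1%, 53.8% and 22.8% for wild-type, and for Rad21-/- cells it gave 7.73%, 30.9% and 25.4%. At each depth the genotypes lay far apart in untreated cells and close at 8 h. Positive cells held 1.21 to 2.17 UMIs on average in any sample, and in all 6 ratios clear of 0 the share part exceeded the level part. In untreated cells the share part of the genotype difference was -2.12 and the level part -0.52. As for C3, the counts are too few for the split to tell a share from a level. No order of genotypes is read at 8 h, where the share was higher and the CPM lower in Rad21-/- cells.

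C3ar1, the receptor of C3a, was at 333, 279 and 258 CPM in wild-type and at 203, 346 and 330 CPM in Rad21-/- cells. Its promoter window above was the one with the AP-1 and NF-kappaB letters, and a link of these letters to its levels was not tested. The levels of wild-type cells lay close together, and untreated Rad21-/- cells were the lowest of the 6 samples. The Rad21-/- log2 ratios to untreated were 0.77 (0.56 to 0.98) at 2 h and 0.70 (0.50 to 0.90) at 8 h. The wild-type ratios were -0.25 (-0.46 to -0.05) and -0.37 (-0.56 to -0.17), but the former was 0.02 with the deep wells kept and the latter -0.06 under median-ratio scaling. Between genotypes C3ar1 was 1.64-fold lower in untreated Rad21-/- cells (log2 ratio -0.72, -0.92 to -0.51), in 8 of 8 pools, as were 4.39% of genes. After LPS it was higher in Rad21-/- cells, by 0.31 (0.10 to 0.52) at 2 h in 3 of 4 pools and by 0.36 (0.17 to 0.54) at 8 h in 5 of 6 pools. Under median-ratio scaling the 8 h ratio was 0.14, and shifting its interval by the same amount makes it include 0. The pool ranges overlapped at all times. A UMI was found in 80.3%, 75.1% and 69.6% of wild-type cells, as against 56.6%, 81.5% and 77.5% of Rad21-/- cells. In untreated Rad21-/- cells the receptors were found together in 6.74% of cells, against 47.1% in wild-type, where the product of their shares was 7.20% and 44.5%.

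**Figure D5:**
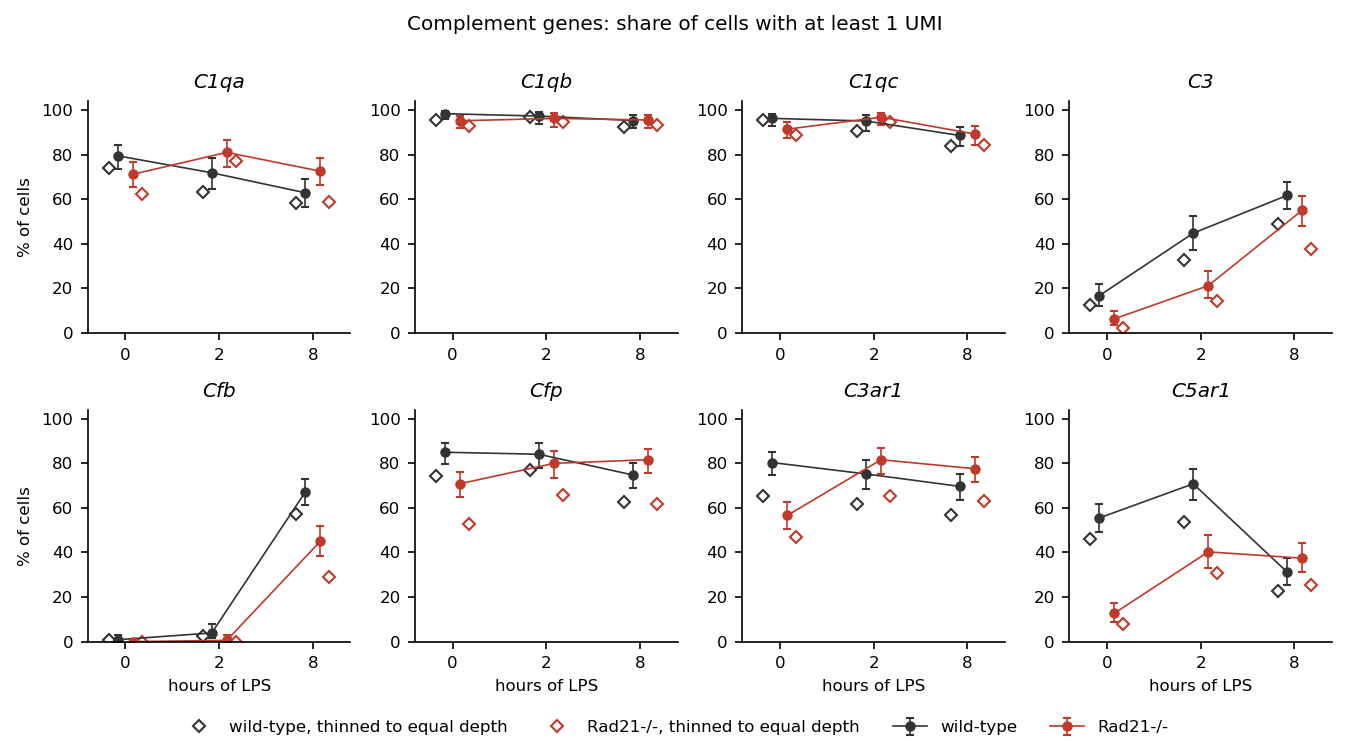
Share of cells (percent) with at least 1 UMI of each complement gene by hours of LPS, filled points with exact 95% Clopper-Pearson intervals, and open diamonds after thinning every cell to 3800 UMIs. C1qb and C1qc stay near the top in all samples, whereas C3, Cfb and C5ar1 span wide ranges.

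Counted at a 2-fold limit, the members past it were few in every comparison. In wild-type cells none was lower at 2 h (3.08% of all genes with at least 50 UMIs) and C3 was at least 2-fold higher (3.33%), as was Cfb by a ratio that rested on 7 and 2 UMIs with an interval of -0.31 to 5.38. At 8 h C3 and Cfb were higher (7.54% of genes) and C5ar1 was lower (15.4%). In Rad21-/- cells C3 and C5ar1 were higher at 2 h (3.39%), C3, Cfb and C5ar1 were higher at 8 h (6.61%), and none of the 8 was lower (1.94% and 5.85%). Between genotypes C3 and C5ar1 were at least 2-fold lower in untreated Rad21-/- cells (3.98%) and at 2 h (4.62%), where Cfb was too on 1 and 7 UMIs, and Cfb alone was lower at 8 h (4.91%). No member was at least 2-fold higher in Rad21-/- cells at any time, as were 1.34%, 2.75% and 7.65% of genes. The median log2 ratio of the members between genotypes was -0.72 in untreated cells, -0.04 at 2 h and -0.02 at 8 h, beside -0.04, 0.04 and 0.20 for all genes.

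Among other complement genes with at least 50 UMIs in a comparison, those past the same limit were lower at 8 h of LPS. Of 49 listed, 28 were in the matrix and 18 had at least 50 UMIs over all samples, and the other 21 were not analysed here. A comparison used only genes with at least 50 UMIs over its 2 samples, 11 to 15 of them. None of these was at least 2-fold higher in any of the 7 comparisons, and none was past 2-fold between genotypes. In wild-type cells at 8 h, 3 of 12 were at least 2-fold lower, beside 15.4% of all genes. These were Cd93, a C1q-linked receptor of phagocytes (244.9 to 67.5 CPM, log2 ratio -1.86), Lrp1, an endocytic receptor that pairs with calreticulin as a C1q receptor (289 to 89.97 CPM, -1.68), and C1qbp, a mitochondrial protein that binds C1q (87.9 to 36.0 CPM, -1.29). Median-ratio scaling added 0.31 to each of these ratios, which put C1qbp just inside the 2-fold limit. In Rad21-/- cells at 8 h only Lrp1 of 15 was at least 2-fold lower, beside 5.85% of all genes (180.2 to 84.7 CPM, -1.09), where Cd93 was at -0.84 and C1qbp at -0.55. The median of the 12 wild-type ratios at 8 h was -0.38, beside -0.24 for all genes, and that of the 15 Rad21-/- ratios was -0.17, beside -0.02. On fewer UMIs, Fcna, which encodes ficolin A of the lectin pathway, had 28 UMIs in Rad21-/- and 7 in wild-type cells at 8 h (log2 ratio 1.84, 0.61 to 3.28). C6, a terminal component, had 13 and 5 UMIs at 2 h (1.32, -0.26 to 3.16), and in wild-type cells 13 at 8 h and 5 before LPS (1.27, -0.31 to 3.11). C1ra, listed among the genes of initiation, had 18 UMIs at 8 h and 5 before LPS in wild-type cells. In Rad21-/- cells C1ra had 11 and 2 UMIs at these times. Other genes on few UMIs went the other way, such as Fcna in wild-type cells, with 7 UMIs at 8 h and 21 before LPS.

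Many genes followed the members over the 6 samples, so likeness is a description only. Among 10612 genes with at least 100 UMIs, the highest Pearson's r of log2(CPM + 1) with C3 were those of Exoc3l4 (0.998) and Calr3 (0.997). With at least 500 UMIs (3059 genes) they were those of Clec4e (0.990) and Clec4d (0.985), which encode C-type lectin receptors, and Clec4e was at 90.6, 662 and 1643 CPM in wild-type and at 10.3, 288 and 1590 CPM in Rad21-/- cells. Gm8394 (0.999) and Ptprc (0.997) were most like Cfb at either minimum. C1qa was followed most closely by Fig4 and Grk6, C1qb by BC005624 and Antxr2, C1qc by Gm21959 and Pnpla7, and Cfp by Slc30a1 and Znhit3, with r from 0.992 to 0.999. The receptor genes had fewer close matches: Dennd5b (0.973) and Atg9a (0.972) for C3ar1, and Gm28641 and Abhd17c (0.984 each) for C5ar1. Only 10 genes had r over 0.95 with C3ar1, the fewest of the 8, and 143 had it with Cfb.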

How the data were processed

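The authors sorted single macrophages into plates, prepared MARS-seq libraries, removed polyT sequence, mapped reads with GEMTools to GRCm38.p4, discarded wells with many spike-in or unmapped reads, and counted each UMI of a gene 1 time. The deposited values are these raw counts, not normalized. Column names gave the sample and library pool of each cell. Counts were summed per sample over wells of at most 25000 UMIs and divided by the summed UMIs (CPM). Levels have exact Poisson intervals, ratios exact conditional binomial intervals and shares exact Clopper-Pearson intervals, at 95%. Cells were thinned to 3800 UMIs without replacement, which left out 21 to 47 shallower cells per sample. Genes entered the percentages of all genes from 50 UMIs over both samples. A count of 0 was read as allowing 3 counts. The intervals were tested on simulated counts that held counting error only, so that run does not check the spread between cells or pools. Doublets were not called. Python 3.11.15, numpy 2.4.6, pandas 2.3.3, scipy 1.17.1 and matplotlib 3.10.9 were used. Names and positions are from GRCm38.p6 tables (16122 of 18429 genes matched). The genes named were the 8 members, other listed complement genes past 2-fold with at least 50 UMIs, the 2 genes most like each member, and Rad21, Tnf, Nos2 and marker genes as checks. C1ra, C2, Clec4e, Fcna and C6 values, and the genes under other observations, were added after their values were seen. The members, lists and the limit on deep wells were chosen with earlier results of these data known.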

Additional observations from a re-analysis of the deposited data

Results flagged for a closer look

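For 4 of the complement genes the difference between LPS and untreated cells had opposite directions in the genotypes, with both counting intervals clear of 0. The difference between genotypes was not tested, since each condition was 1 sample. At 2 h C1qa had a log2 ratio of -0.40 in wild-type and 0.31 in Rad21-/- cells, and C1qc had -0.28 and 0.19. These signs held under every alternative run. C3ar1 had -0.25 in wild-type and 0.77 in Rad21-/- cells at 2 h, and -0.37 and 0.70 at 8 h. With the deep wells kept, the wild-type ratio of C3ar1 at 2 h was 0.02, so its opposite direction rests on leaving out 5 wells. Under median-ratio scaling its wild-type ratio at 8 h was -0.06, and the interval shifted by the same amount includes 0. C5ar1 had -1.13 in wild-type and 1.48 in Rad21-/- cells at 8 h, and its untreated levels were 176 and 24.9 CPM.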

How the results depend on the processing

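Of 53 log2 ratios, 8 changed sign under an alternative, and of these only the wild-type 2 h ratio of C3ar1 had a main interval clear of 0. The number of members at least 2-fold lower in wild-type cells at 8 h was 1, and it was 0 under median-ratio scaling, where C5ar1 was at -0.82. Leaving out each library pool in turn gave 1 to 2 there, the 2 being reached without 1 untreated pool or without 1 pool at 8 h, when C1qa passed the limit. It gave 1 to 2 for members at least 2-fold higher in wild-type cells at 2 h, where without 1 pool at 2 h Cfb had a log2 ratio of 0.79. The wild-type Cfb ratios also moved by over 1.5 times without either of the untreated pools that held its 2 UMIs (2.73 at 2 h and 8.35 at 8 h, or 3.004 and 8.62). With a limit of 1.5-fold, the members lower than in untreated cells were 4 in wild-type and 1 in Rad21-/- cells at 8 h, and those higher were 3 at 2 h and 4 at 8 h in Rad21-/- cells. Against wild-type cells, 4 were lower in untreated Rad21-/- cells and 1, C1qc, was higher at 2 h. The share of all genes past 1.5-fold is not given here, so these counts are not read as a result about the members. Equal weight per cell or per pool changed none of the counts at the 2-fold limit. Without a minimum of UMIs, 6.45% to 23.0% of all genes were past 2-fold, compared with 1.34% to 15.4%. Thinning moved 33 of 48 shares outside their intervals and a limit of 2 UMIs per positive cell moved 46. Depth limits Cfb before 8 h, at 0 to 7 UMIs per sample.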

Other observations

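The levels of 3 of the other complement genes, chosen after they were seen, are not given above. Cr2, the complement receptor of B cells, was at 84.8 to 141.8 CPM in the 6 samples, while the B cell marker Ms4a1 was at 4.25 to 13.6 CPM. Csmd1, a large membrane regulator gene known from the nervous system, was at 102.8 to 142.0 CPM. C5ar2, which encodes the second receptor of C5a, was at 1.15 to 6.23 CPM, from 2 to 9 UMIs per sample.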
